A study of Homo sapiens with 6 samples.

Results

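The integrated stress response genes described here are 10 of 48114 gene rows in an RNA sequencing experiment on TC-71 cells, which derive from a human Ewing sarcoma. They were chosen by name, with earlier results of these data known. Each matched 1 row by its symbol, and all 10 had enough reads to be tested. They comprise 2 eIF2 kinases (EIF2AK3 and EIF2AK4), 6 transcription factors of the basic leucine zipper (bZIP) class (ATF4, ATF5, ATF3, DDIT3, CEBPB and CEBPG) and 2 regulators that feed back on the response (TRIB3 and PPP1R15A). One group of 3 libraries came from cells given BEZ235, which blocks both PI3K, a lipid kinase, and mTOR, a kinase that controls growth, and the other group of 3 from cells given its solvent, dimethyl sulfoxide (DMSO). Both treatments lasted 16 h, the cells are labelled wild type and grew in serum-supplemented medium, and the libraries are labelled as biological replicates. All of them come from 1 cell line, and the sources used here do not give the dose of BEZ235.

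In the integrated stress response, kinases that sense different stresses phosphorylate the translation initiation factor eIF2. Most protein synthesis then slows, while a few transcripts with upstream open reading frames, ATF4 among them, are translated better. ATF4 forms dimers with other bZIP factors and switches on genes for amino acid supply, redox balance and feedback, and mTOR complex 1 is known to raise ATF4 output as well. RNA counts show the transcripts of these factors, not the proteins or the phosphorylation of eIF2.

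The libraries held 184790722 to 233767211 reads, and the counts of the members ran from 917 to 401816 reads in a library. The Ewing sarcoma markers CD99, NR0B1, NKX2-2, STEAP1, PRKCB, LIPI, FLI1 and EWSR1 were present in all 6 libraries, and their summed level was 377810 to 401736 normalized counts in DMSO and 304950 to 313965 in BEZ235. Of 14 blood, epithelial and endothelial markers 8 were under a normalized count of 10 in every library, and the blood markers HBB and CD3E were at 0 throughout. The summed level of the blood markers was 352 to 729 in DMSO and 854 to 932 in BEZ235, and that of the epithelial markers 96.0 to 177 and 114 to 186. The endothelial markers summed to at most 21.6. The 5 fibroblast markers were all present and summed to 11535 to 12699 and 11431 to 12533. Single markers moved both ways within these sums. Log2 fold changes, BEZ235 minus DMSO, ran from -2.65 (LUM) to 1.43 (PDGFRB) among the fibroblast markers. Among the Ewing sarcoma markers they ran from -1.11 (NR0B1) to 1.26 (NKX2-2). CD99 made up most of the Ewing sarcoma sum, with a mean of 263162 in DMSO and 208374 in BEZ235. The mitochondrial rows held 2.82 to 3.55% of normalized counts in DMSO and 0.507 to 0.706% in BEZ235. The part of any of these values in the results on the members was not tested.

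With BEZ235, 9 of the 10 members were lower and EIF2AK4 was higher, at a limma adjusted p under 0.05. Over all 23923 tested genes 33.2% were called lower and 33.1% higher, so the number of members called, 10 of 10 against 66.3% of all genes, has to be read beside a large background. A fall of at least 2-fold was called for 7 members, against 13.6% of all tested genes, and one of at least 4-fold for 6 members, against 4.88%. Because the members were chosen with earlier results of these data known, these shares describe them and test nothing. No member (0 of 10) was called at least 2-fold higher, against 12.7% of all tested genes. The median log2 fold change, BEZ235 minus DMSO, was -2.26 over the members and 0.00 (-0.00085) over all tested genes. The 2 groups did not overlap for any member, and the same held for 70.9% of tested genes. In bulk RNA, a smaller share of cells with a transcript and less of it per cell cannot be told apart.

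**Figure D1:**
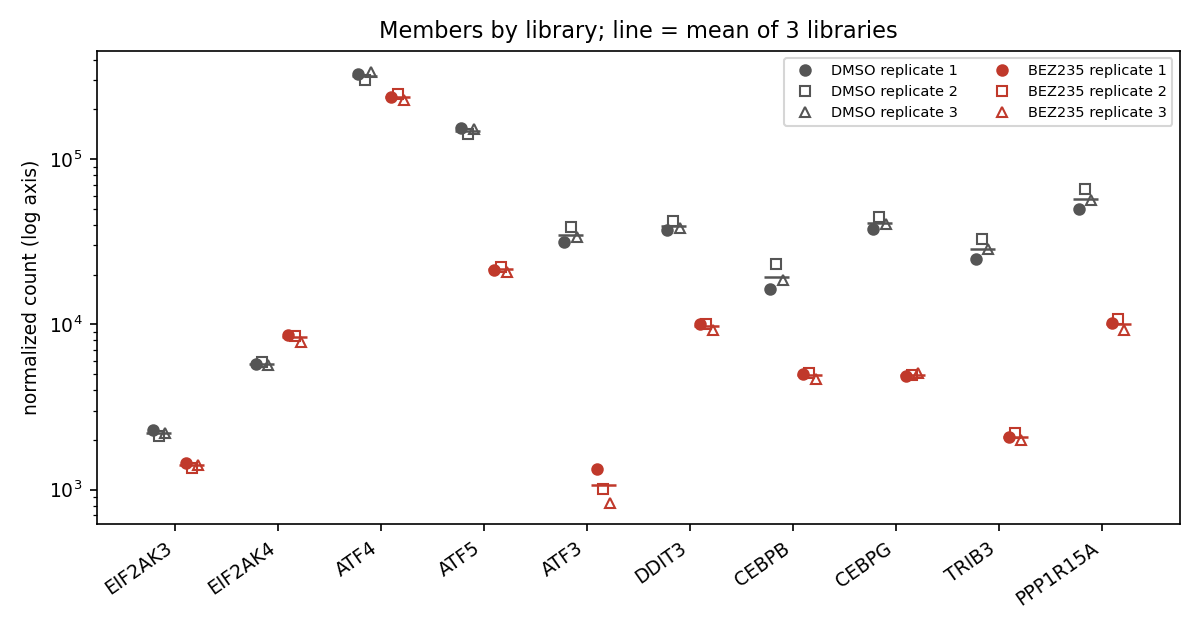
Normalized count of each member (y axis, log scale) in each library, with DMSO in grey, BEZ235 in red and a line at the mean of 3 libraries. The groups are apart for all 10 members, EIF2AK4 is the only one higher with BEZ235, and ATF3 has the widest gap.

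The kinases moved little and in opposite directions. EIF2AK3, also called PERK, senses unfolded protein in the endoplasmic reticulum (hg38 chromosome 2, 88556741 to 88627576). Its normalized counts, that is reads divided by the authors' scaling factor of each library, were 2299, 2094 and 2196 in the DMSO libraries and 1447, 1353 and 1398 in the BEZ235 libraries. Every BEZ235 library lay below every DMSO library. The log2 fold change was -0.65 ± 0.069 (SE; adjusted p by limma = 8.94e-06). EIF2AK4, also called GCN2, senses uncharged tRNA when amino acids run short (chromosome 15, 39934115 to 40035596). It had 5750, 5892 and 5684 normalized counts in DMSO and 8656, 8550 and 7832 in BEZ235, with the DMSO libraries close together and all below the BEZ235 ones. Its log2 fold change was 0.53 ± 0.056 (SE; adjusted p by limma = 8.61e-06). The middle 50% of all tested genes had log2 fold changes from -0.63 to 0.58, so the rise of EIF2AK4 lay inside that band and the fall of EIF2AK3 just outside it. The EIF2AK3 row overlaps that of LOC101928371, which had a log2 fold change of -0.49 and a DMSO mean of 394 normalized counts, and 14.4% of its exon bases are also exon of AC104134.1 on the other strand.

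The other pair of eIF2 kinases also rose. EIF2AK1, known as HRI, which responds to heme shortage and mitochondrial stress, went from 16012 ± 1461 to 19638 ± 845 normalized counts (SD, n = 3), a log2 fold change of 0.30 ± 0.068 (SE; adjusted p by limma = 0.00259). EIF2AK2, known as PKR, the kinase activated by double-stranded RNA, had a log2 fold change of 0.26 (SE 0.058). Levels of different genes were compared as normalized counts per kilobase of annotated exon. On that scale EIF2AK1 was the most abundant kinase in both groups, with 2662 to 3175 in DMSO and 3379 to 3682 in BEZ235. EIF2AK4 came second at 475 to 493 and 655 to 724. EIF2AK3 lay above EIF2AK2 in DMSO, 385 to 423 against 322 to 345, and below it in BEZ235, 249 to 266 against 385 to 411. On this scale the order of EIF2AK3 and EIF2AK2 therefore differed between the groups, without overlap in either. That order depends on the annotated exon lengths, 5434 bases for EIF2AK3 and 10753 for EIF2AK2. By normalized count EIF2AK2 lay above EIF2AK3 in every library of both groups. EIF2AK2 had 3468 to 3712 against 2094 to 2299 in DMSO, and 4144 to 4421 against 1353 to 1447 in BEZ235. Within the summed level of the 4 kinases, EIF2AK3 took 9.86% ± 0.26 in DMSO and 5.27% ± 0.22 in BEZ235 (SD, n = 3).

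ATF4, the central factor of the response, had the smallest fall of the 9 members that were lower (chromosome 22, 39520559 to 39522685), except with quantile normalization. It had 325863, 299042 and 335348 normalized counts in DMSO and 237827, 246698 and 226698 in BEZ235. The highest BEZ235 library stayed below the lowest DMSO library. The log2 fold change was -0.43 ± 0.069 (SE; adjusted p by limma = 0.000219), inside the band of the middle 50% of all genes, and it was -0.75 with quantile normalization, where EIF2AK3 at -0.60 had the smallest fall. By mean normalized count ATF4 ranked 69th among all tested genes in DMSO and 107th in BEZ235. The row may share reads with processed pseudogenes: the annotation lists 4 of them (ATF4P1 to ATF4P4), and none has a symbol of its own in the table.

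ATF5, a close relative of ATF4 whose translation is controlled in the same way, fell much further (chromosome 19, 49928763 to 49933938). It had 153922, 141142 and 151815 normalized counts in DMSO and 21463, 22350 and 20613 in BEZ235, 6.94-fold less. The log2 fold change was -2.79 ± 0.056 (SE; adjusted p by limma = 1.05e-10). The row lies inside that of NUP62 and IL4I1 on the other strand. Of its exon bases 21.2% are also exon of NUP62, and the sources used here do not say whether the counting used strand, so reads of the 2 strands cannot be told apart. The NUP62 and IL4I1 row itself had a log2 fold change of -1.44 and a mean of 18667 normalized counts in DMSO, against 148960 for ATF5.

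ATF3, a repressor and activator induced by many stresses, had the steepest fall of the members (chromosome 1, 212565407 to 212620776). Its normalized counts were 31690, 38795 and 33611 in DMSO and 1333, 1013 and 831 in BEZ235. The groups were far apart, and the BEZ235 libraries spread more than those of any other member, with a coefficient of variation of 24.0%. The mean was 32.8-fold lower with BEZ235. The log2 fold change was -5.05 ± 0.141 (SE; adjusted p by limma = 5.06e-10), the 54th largest fall among the 23923 tested genes.

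DDIT3, known as CHOP, promotes cell death in prolonged stress and pairs with C/EBP factors (chromosome 12, 57516589 to 57520519). It had 37067, 42263 and 38544 normalized counts in DMSO and 10002, 10054 and 9296 in BEZ235. The BEZ235 libraries were close together and lay at a 4.02-fold lower mean. The log2 fold change was -2.004 ± 0.061 (SE; adjusted p by limma = 8.53e-10), at the edge of a 4-fold fall, and ran from -2.10 to -1.95 over the alternatives. Its last part overlaps, on the other strand, a row whose symbol is a number and which lies within MARS, the methionyl-tRNA synthetase gene. Of the exon bases of DDIT3 27.2% are also exon of MARS, and that row had a log2 fold change of -3.05 and a DMSO mean of 105920 normalized counts. The part of those reads in the DDIT3 value was not tested.

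The C/EBP members fell by unequal amounts. CEBPB, which binds DNA as a dimer and takes part in inflammatory and stress transcription, had 16331, 23104 and 18654 normalized counts in DMSO and 5022, 5098 and 4664 in BEZ235 (chromosome 20, 50190583 to 50192690). DMSO replicate 2 was the highest, and the spread in DMSO, a coefficient of variation of 17.8%, was the largest in that group. The log2 fold change was -1.96 ± 0.104 (SE; adjusted p by limma = 3.91e-08). CEBPG, a C/EBP protein without an activation domain that forms dimers with ATF4, had 37861, 44482 and 40559 in DMSO and 4874, 4909 and 5068 in BEZ235 (chromosome 19, 33373330 to 33382686). It fell 8.28-fold, a log2 fold change of -3.05 ± 0.062 (SE; adjusted p by limma = 1.05e-10), with a coefficient of variation of only 2.10% among BEZ235 libraries. CEBPB overlaps its antisense gene CEBPB-AS1, which had a log2 fold change of -1.96 and a DMSO mean of 4556 normalized counts, and 11.8% of the exon bases of CEBPB are also exon of that gene.

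Both feedback regulators were lower. TRIB3, a pseudokinase that binds ATF4 and AKT and limits their activity, had 24900, 32732 and 28428 normalized counts in DMSO and 2079, 2191 and 1997 in BEZ235 (chromosome 20, 380629 to 397561). It was 13.7-fold lower with BEZ235, with no overlap, at a log2 fold change of -3.77 ± 0.088 (SE; adjusted p by limma = 1.86e-10). PPP1R15A, known as GADD34, brings protein phosphatase 1 to phosphorylated eIF2 and so ends the response (chromosome 19, 48872421 to 48876061). It had 49554, 66280 and 56640 normalized counts in DMSO and 10243, 10731 and 9188 in BEZ235, a log2 fold change of -2.51 ± 0.096 (SE; adjusted p by limma = 3.95e-09). Its row lies inside the long row that carries the symbol FTL, which had a log2 fold change of -0.68. The FTL row had a DMSO mean of 1167050 normalized counts, against 57491 for PPP1R15A. The part of those reads in the PPP1R15A value was not tested.

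Relatives of the feedback regulators were lower too, by smaller fold changes, a difference that was not tested. PPP1R15B, the constitutive partner of the same phosphatase, went from 27849 ± 3382 to 8056 ± 282 normalized counts (SD, n = 3), a log2 fold change of -1.78 ± 0.079 (SE; adjusted p by limma = 1.06e-08). Per kilobase of exon PPP1R15A was above PPP1R15B in every library of both groups, 16021 to 21429 against 4714 to 6004 in DMSO and 2971 to 3469 against 1482 to 1588 in BEZ235. For TRIB1 and TRIB2, the other tribbles pseudokinases, the log2 fold changes were -0.41 (SE 0.047) and -0.55 (SE 0.071). In DMSO, TRIB3 was the most abundant tribbles transcript, 7251 to 9532 per kilobase against 2828 to 2872 for TRIB1 and 2660 to 3193 for TRIB2, which overlapped each other. In BEZ235 TRIB3 was the least abundant, at 582 to 638 against 2108 to 2184 and 1874 to 2025. Its share of the summed tribbles level went from 59.2% ± 2.5 to 12.9% ± 0.6 (SD, n = 3).

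DMSO replicate 2 had the highest DMSO value for 7 of the 10 members, and BEZ235 replicate 3 the lowest BEZ235 value for 8. Without DMSO replicate 2 the log2 fold changes of CEBPB, TRIB3 and PPP1R15A were -1.83, -3.67 and -2.40.

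Setting each member against ATF4 in the same library removes the scaling of the library. DDIT3 stood at 11.4, 14.1 and 11.5% of the ATF4 count in the DMSO libraries and at 4.21, 4.08 and 4.10% in the BEZ235 libraries. ATF5 stood at 45.3 to 47.2% in DMSO and 9.02 to 9.09% in BEZ235. ATF3 went from 9.72 to 13.0% down to 0.367 to 0.561%, and TRIB3 from 7.64 to 10.9% down to 0.874 to 0.888%. For these genes, as for CEBPG, CEBPB and PPP1R15A, the ratio was lower in all 3 BEZ235 libraries than in all 3 DMSO libraries. That of EIF2AK3 was also lower, 0.549 to 0.617% against 0.655 to 0.705%, and that of EIF2AK4 was higher, 3.45 to 3.64% against 1.69 to 1.97%. ATF4 itself was 1.35-fold lower with BEZ235, which raises every ratio there, and the count of EIF2AK4 was 1.45-fold higher. By count the groups did not overlap for 70.9% of all tested genes, and the share for ratios to ATF4 was not computed. With 3 libraries against 3 an exact permutation test cannot give a two-sided p below 0.1, so the ratios are given without a test.

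**Figure D2:**
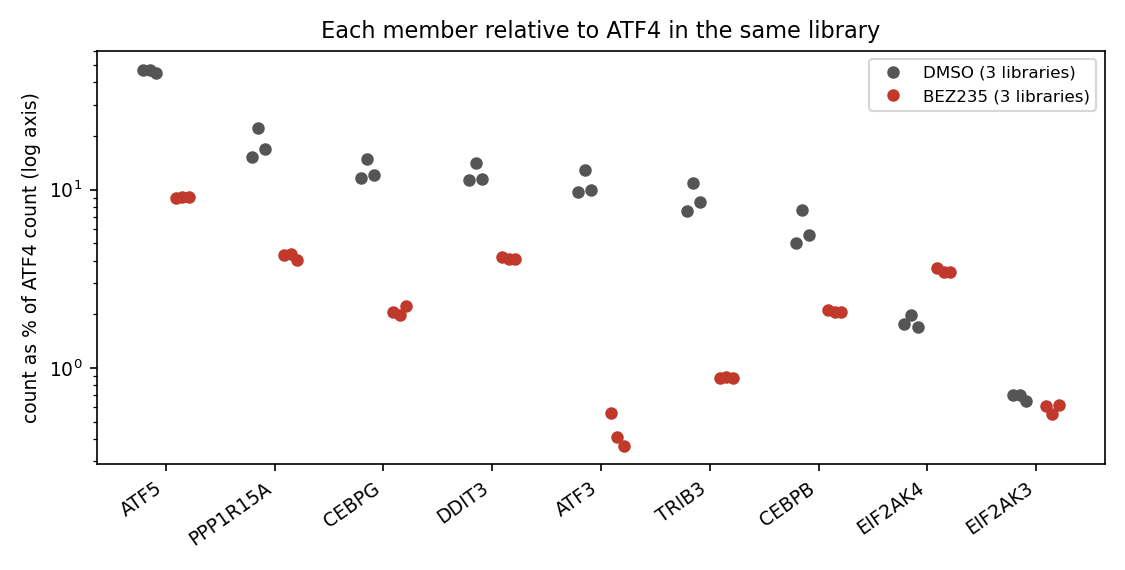
Count of each member as a percentage of the ATF4 count in the same library (y axis, log scale), 3 DMSO libraries in grey and 3 BEZ235 libraries in red. ATF5, PPP1R15A, CEBPG, DDIT3, ATF3, TRIB3 and CEBPB lie lower with BEZ235, and the ratio of EIF2AK4 lies higher.

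The promoters of the members were searched for letters that bZIP factors are known to bind, since 9 members fell together. RefSeq windows of 300 bases on GRCh38.p14, from 250 bases before a start to 50 after it, were found for all 10 members, 19 windows in all. The stretches printed are the parts before the start that hold no exon annotated in GENCODE v29. The capitals mark the match, and each stretch reads along the gene's strand. ATF3 and CEBPG hold TGATGNAA, the composite C/EBP-ATF element to which ATF4 dimers bind. It starts 191 bases before the upstream start of ATF3 and 42 bases before the second start of CEBPG, downstream of the first. With N as any base, the match reads TGATGGAA in ATF3 and TGATGCAA in CEBPG. The window of the other start of each gene held no match. PPP1R15A holds TGACGTCA, the cyclic AMP response element, 58 bases before its start. TGANTCA, a pattern wider than the AP-1 element since N stands for any base, was matched by DDIT3 238 bases before a start and by EIF2AK4 212 bases before its start. The match in DDIT3 reads TGACTCA, a form of the AP-1 element, and that in EIF2AK4 reads TGATTCA, which is not one. ATF5 holds TGACTCA in a stretch that is annotated as exon and is not shown. The last 2 stretches are shown because a member that fell and the one that rose both match the wider pattern, with different letters at N.
ATF3, chr1:212565160-212565279, plus strand: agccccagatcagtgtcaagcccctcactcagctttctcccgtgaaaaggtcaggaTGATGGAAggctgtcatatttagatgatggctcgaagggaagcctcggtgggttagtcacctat
CEBPG, chr19:33373993-33374112, plus strand: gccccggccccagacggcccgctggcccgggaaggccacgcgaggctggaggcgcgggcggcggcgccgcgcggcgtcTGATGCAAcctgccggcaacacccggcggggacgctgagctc
PPP1R15A, chr19:48872272-48872391, plus strand: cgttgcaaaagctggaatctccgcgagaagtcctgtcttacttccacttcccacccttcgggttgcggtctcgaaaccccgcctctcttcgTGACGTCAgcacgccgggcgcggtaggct
DDIT3, chr12:57520744-57520767, minus strand: cgcgcgcgcgcaTGACTCAcccac
EIF2AK4, chr15:39933865-39933984, plus strand: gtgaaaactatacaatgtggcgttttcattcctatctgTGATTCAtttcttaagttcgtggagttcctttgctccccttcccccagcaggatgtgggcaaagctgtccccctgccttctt

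Both strands were searched, and TGANTCA and TGACGTCA read the same on both. TGATGNAA stood in windows of 2 of the 10 members, TGANTCA in those of 3 and TGACGTCA in that of 1. Of all 35116 promoter windows 3.62% held TGATGNAA, 7.71% TGANTCA and 1.85% TGACGTCA, against 2, 4 and 1 of the 19 windows of the members. Windows of 1 gene can overlap, and the TGANTCA match of DDIT3 is 1 site counted in 2 windows. Of all genes with a window 4.46% held TGATGNAA, 9.37% TGANTCA and 2.25% TGACGTCA. Windows were found for 42 of 51 listed target genes of the response, and 14 of these 42 genes held TGATGNAA, against 4.46% of all genes with a window. These genes were listed as known targets, and the list was chosen with earlier results of these data known. Their share is therefore a description and not a test of control by ATF4. The endoplasmic reticulum stress element (ERSE) was in no window of a member. A match in these windows is a description of letters, not of binding.

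Around the kinases, 24 further genes of the eIF2 machinery were tested, and they moved both ways: 14 were higher, 7 lower and 3 not called. Over all tested genes 33.1% were higher and 33.2% lower. The median log2 fold change of the 24 genes was 0.22. Their list was chosen with earlier results of these data known, so the counts are a description. The rises included EIF5, the factor that makes eIF2 hydrolyse GTP, from 14568 ± 1955 to 48276 ± 2638 normalized counts (SD, n = 3), a log2 fold change of 1.74 ± 0.085 (SE; adjusted p by limma = 2.27e-08). DELE1, which carries mitochondrial stress to EIF2AK1, rose from 2497 ± 47.8 to 7267 ± 114, and EIF2S3, the gamma subunit of eIF2, from 22988 ± 2631 to 58298 ± 2117. EIF2S1, the subunit that the kinases phosphorylate, had 8358 to 8494 normalized counts in DMSO and 8192 to 8994 in BEZ235, overlapping groups, with a log2 fold change of 0.04 ± 0.053 (SE; adjusted p by limma = 0.51). The largest fall in the list was that of PPP1R15B.

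**Figure D3:**
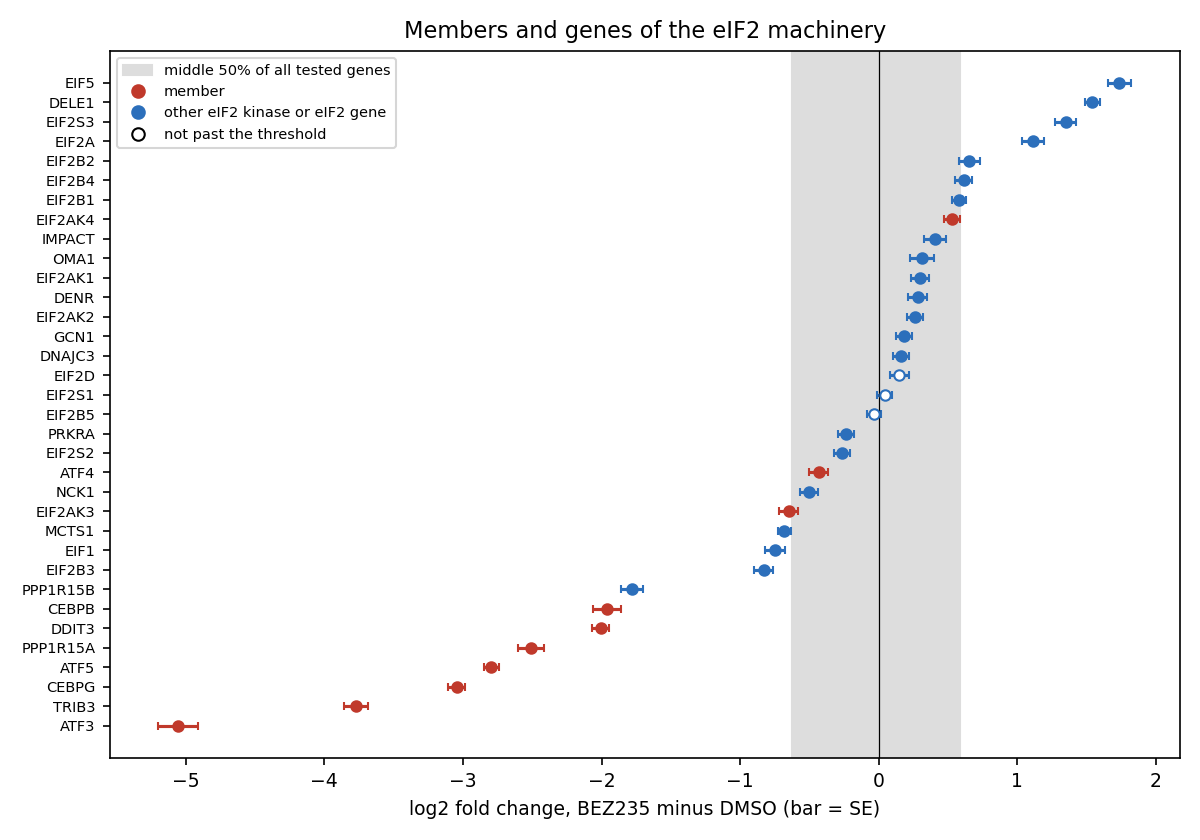
Log2 fold change, BEZ235 minus DMSO (x axis), with its SE as a bar, of the 10 members (red) and 24 other genes of the eIF2 machinery (blue), with open circles for genes not past the threshold and a grey band for the middle 50% of all tested genes. The members other than EIF2AK3, ATF4 and EIF2AK4 lie at -1.96 or lower, and 14 of the 24 other genes were called higher.

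The other bZIP factors put the members in the frame of their protein class. Of 47 listed, 43 were tested. Of these 26 were lower, 7 higher and 10 not called, against 33.2% lower and 33.1% higher of all tested genes. Their median log2 fold change was -0.48, and 8 were called at least 4-fold lower, against 4.88% of all tested genes. This list, too, was chosen with earlier results of these data known, so the shares are a description. XBP1, a factor of the unfolded protein response, fell from 70285 ± 4295 to 13592 ± 567 normalized counts (SD, n = 3). The log2 fold changes of JUN and NFIL3 were -3.04 (SE 0.083) and -2.84 (SE 0.076), and JDP2, which forms dimers with JUN and ATF3, one of -3.35 (SE 0.099). CREB3L4, a membrane-bound factor of the CREB3 type, had the smallest adjusted p of the rises, from 1666 ± 54.1 to 6439 ± 576. NFE2L2, the oxidative stress factor NRF2, had a log2 fold change of -1.06 (SE 0.059). ATF6, the third sensor of endoplasmic reticulum stress, had 5583 to 5703 normalized counts in DMSO and 4954 to 5323 in BEZ235 and was not called although the groups did not overlap (log2 fold change -0.12, SE 0.053, limma adjusted p = 0.060).

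ATF4 was the most abundant bZIP transcript per kilobase of exon in every library of both groups, 118951 to 133392 in DMSO and 90174 to 98130 in BEZ235. In DMSO it was followed by ATF5 (47780 to 52106) and DDIT3 (28361 to 32336), and then by XBP1. Of the exon bases of DDIT3 27.2% are also exon of MARS, and the part of MARS reads in the rank of DDIT3 was not tested. The ranges of CEBPB, CEBPG and ATF3, which ranked 8th to 10th, overlapped. In BEZ235 JUND and JUNB followed ATF4, at 15040 to 17460 and 10950 to 13337, 2 factors named here after their values were seen. DDIT3 and ATF5 overlapped at 7112 to 7692 and 6978 to 7566, while CEBPG ranked 19th and ATF3 35th of 53. ATF4 made up 36.4% ± 2.0 of the summed bZIP level in DMSO and 51.8% ± 0.6 in BEZ235 (SD, n = 3), a higher share although its own count fell. Within the C/EBP family, CEBPA had log2 fold changes near 0 (0.09, SE 0.075, limma adjusted p = 0.33, and -0.01 with total-count scaling), and CEBPD had one of -0.97 (SE 0.099). CEBPG lay above CEBPA in every DMSO library, 8583 to 10084 against 1841 to 2031 per kilobase, and below it in every BEZ235 library, 1105 to 1149 against 1840 to 2212. The order in BEZ235 depends on the exon lengths used. By normalized count the 2 genes overlapped there, at 4874 to 5068 for CEBPG and 4841 to 5820 for CEBPA.

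**Figure D4:**
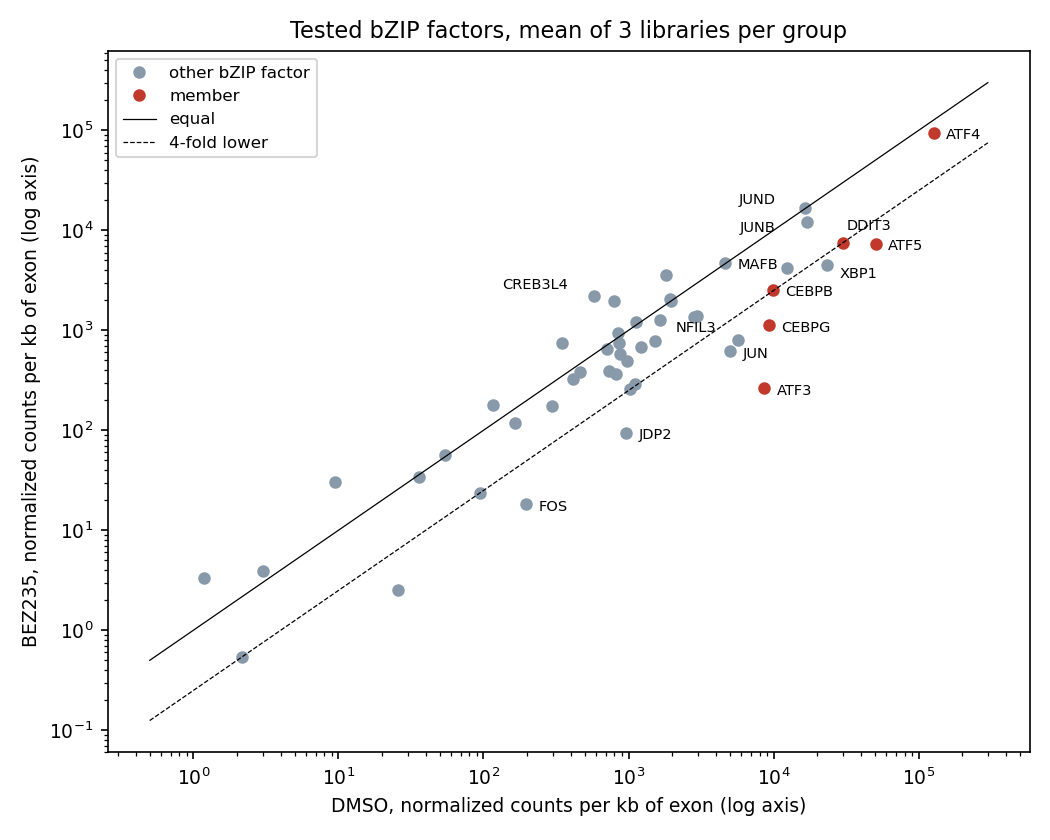
Mean normalized count per kilobase of exon in DMSO (x axis) and BEZ235 (y axis), both log scales, for the 49 tested bZIP factors, with the 6 members in red, a solid line at equality and a dashed line at a 4-fold lower level. ATF4 lies at the top right near equality, ATF3, ATF5 and CEBPG lie below the dashed line, and DDIT3, 4.02-fold lower, lies just below it.

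Of 19 genes known for ATF4 turnover or as its cofactors, 11 were lower, 6 higher and 2 not called. Over all tested genes 33.2% were lower and 33.1% higher. The median log2 fold change of the 19 genes was -0.16. This list was also chosen with earlier results of these data known. NUPR1, a stress-induced chromatin protein that is itself a target of ATF4, fell from 3304 ± 418 to 60.9 ± 5.0 normalized counts (SD, n = 3), a log2 fold change of -5.73 ± 0.126 (SE; adjusted p by limma = 1.33e-10). For CDC20 of the anaphase-promoting complex and EGLN3, an oxygen-sensing prolyl hydroxylase, the log2 fold changes were -2.42 (SE 0.106) and -1.88 (SE 0.117). BTRC, a ubiquitin ligase subunit that recognises phosphorylated ATF4, rose by 0.83 (SE 0.085) on the log2 scale. FBXW11 of the same list, named here after its values were seen, was called lower (log2 fold change -0.14, SE 0.052, limma adjusted p = 0.0356).

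Of 50 tested target genes of the response, 48 were lower, 0 higher and 2 not called. Over all tested genes 33.2% were called lower and 33.1% higher. The median log2 fold change of the target genes was -2.07, close to that of the members. Their list was chosen with earlier results of these data known. The fit called 39 of the target genes at least 2-fold lower, against 13.6% of all tested genes. ASNS, asparagine synthetase, PSAT1 of serine synthesis and the secreted hormone GDF15 had the smallest adjusted p, with log2 fold changes of -5.46, -3.94 and -5.12. SLC1A4, a neutral amino acid transporter, and KLHL24, both not called, had log2 fold changes of -0.02 (limma adjusted p = 0.859 and 0.907). These 2 genes were named after their values were seen.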

How the data were processed

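RNA of 3 BEZ235 and 3 DMSO cultures of TC-71 cells was sequenced. The authors deposited normalized read counts per gene, a signal that is never negative. The tools STAR 2.4.0, DESeq, SAMtools, Picard and FastQC and the build hg38 are named, without roles, per the submitters' processing notes; per the file headers, genes are those of FASTDB. Each deposited column was a whole multiple of 1 step (0.835 to 1.16 normalized counts), so whole reads were recovered for 100% of values (tolerance 0.01). Control columns were matched to DMSO samples by number. The p-values measure the spread between these cultures of 1 line.

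Genes with at least 10 normalized counts in at least 3 libraries were tested with limma 3.58.1 (R 4.3.3) with a mean-variance trend on log2(normalized count + 1), two-sided, with Benjamini-Hochberg adjustment over all 23923 genes and a threshold of 0.05. Fold changes on this scale understate those of low genes. The script was tested on simulated data. Alternatives were other scalings, pseudocounts, filters, no trend, a replicate block, edgeR 4.0.16 and DESeq2 1.42.0 on the recovered reads (edgeR called 15744 genes, limma 15863), and leaving out each library.

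Lengths are unions of GENCODE v29 exons. Promoters are from RefSeq (GRCh38.p14). The members and lists were chosen with earlier results of these data known. Genes named are all members, for each list the 3 smallest adjusted p in the direction with more calls and 1 opposite, a fixed set of relatives, rows that overlap a member, and the nearest patterns to the steepest fall and the rise; 1 of these patterns is not reported here, and other genes are identified where named.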

Additional observations from a re-analysis of the deposited data

How the results depend on the processing

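The count of 9 members lower and 1 higher was the same under all 17 alternatives, and no member changed direction or its side of the threshold. The count of genes called over the whole table was 15863 and ran from 14483 to 16102. Over the alternatives the log2 fold change of ATF4 ran from -0.75 (quantile normalization) to -0.40, and that of ATF3 from -5.23 to -4.89. The change of EIF2AK4 ran from 0.43 (total-count scaling) to 0.58. Total-count scaling multiplies all genes of a library by the same factor. With it the median log2 fold change of all tested genes was -0.0965, against -0.00085 in the main fit. The log2 fold changes of EIF2S1 and CEBPA, neither of them called, went from 0.0418 and 0.0859 in the main fit to -0.0545 and -0.0103. Under the same scaling ATF6 was called lower (-0.22, limma adjusted p = 0.00768, 0.00768 to 0.159 over all alternatives). CEBPA was called higher without BEZ235 replicate 3 (0.17, adjusted p = 0.047, 0.047 to 0.914). The labels do not say that replicate numbers pair cultures, and deviations of same-numbered libraries correlated across genes with r of -0.04, 0.02 and 0.04. A replicate block gave 15917 genes called and 9 and 1 members. Counts of members were at least 917 reads in a library, so depth did not limit these calls.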

Other observations

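The genes nearest in pattern over the 6 libraries were sought for ATF3, the steepest fall, and EIF2AK4, the rise. Likeness was measured as the Euclidean distance between log2 values centred on the DMSO mean, over all tested genes with a symbol outside the lists. Nearest to ATF3 were TNFRSF9, a costimulatory receptor of the tumour necrosis factor receptor family, and BEST1, a chloride channel, at distances of 0.39 and 0.66. TNFRSF9 had 2134 ± 120 normalized counts in DMSO and 65.6 ± 19.2 in BEZ235 (SD, n = 3), a log2 fold change of -5.04 (SE 0.193). For BEST1 the log2 fold change was -5.28 (SE 0.110). Nearest to EIF2AK4 were PCGF2, a Polycomb protein, LOC100128494 and UTP18, a factor of ribosome assembly, at distances of 0.04, 0.05 and 0.05, with log2 fold changes of 0.52, 0.53 and 0.53. The distance says nothing of shared control.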
